A study of Mus musculus with 3 samples.

Results

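The aquaporin water channel family was examined in the ureter of mouse embryos, wild-type animals of strain FVB/N taken on embryonic day 15, which the labels equate with Theiler stage 23. The members were 10 genes, Aqp1 to Aqp9 and Aqp11, out of 18194 genes named on the array, and each was found through the probe sets that the platform annotation assigns to its symbol alone. They had 22 probe sets, 1 each for Aqp1, Aqp2, Aqp5 and Aqp8 and several for the other 6 genes. Ureters were microdissected from the renal pelvis down to the bladder insertion, and total RNA of 3 samples that were not pooled, named replicates 3, 8 and 9, went through 2 rounds of amplification before hybridisation to 1-colour Affymetrix arrays. The 3 arrays form 1 group, and no mutant or treated samples were analysed here. Whether different embryos or litters gave the 3 samples is not stated, and their spread may then be partly technical.

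Aquaporins are membrane proteins whose pores let water cross cells along an osmotic gradient. Some members, the aquaglyceroporins, also carry glycerol, and others conduct anions, ammonia or hydrogen peroxide. In the urinary tract they are known best from the nephron and the collecting duct, where vasopressin brings Aqp2 channels to the apical membrane to concentrate urine. The ureter and the bladder are lined by urothelium, a barrier epithelium in which Aqp3 has been described in adult rodents and humans.

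Each level below is a linear signal in arbitrary units, the brightness of a probe set on an array scaled to a common mean, and the number of arrays limits its precision. Brightness depends on the probe set as well as on the transcript, so levels were set against background on the same array, and the levels of different genes were not ranked. Background was the 95th percentile of 55 measured genes that mark other organs, such as lens, pituitary, retina and testis. In replicates 3, 8 and 9 this threshold was 258, 305 and 345. A gene was called above background when its brightest probe set passed the threshold on all 3 arrays.

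Of the 10 aquaporin genes, 3 were above background on every array: Aqp1, Aqp3 and Aqp9. Aqp8 passed in replicate 3 alone, and the other 6 genes were below the threshold on all 3 arrays. Among all named genes outside the reference list, 58.6% were above background. By single probe sets, 3 of the 22 were above the threshold on every array, 2 on some arrays and 17 on none, against 47.2% of all probe sets of named genes above it on every array. The median of the mean log2 levels was 7.64 over the aquaporin genes and 9.55 over all named genes outside the reference list, which describes the brightness of their probe sets and ranks no transcripts.

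**Figure D1:**
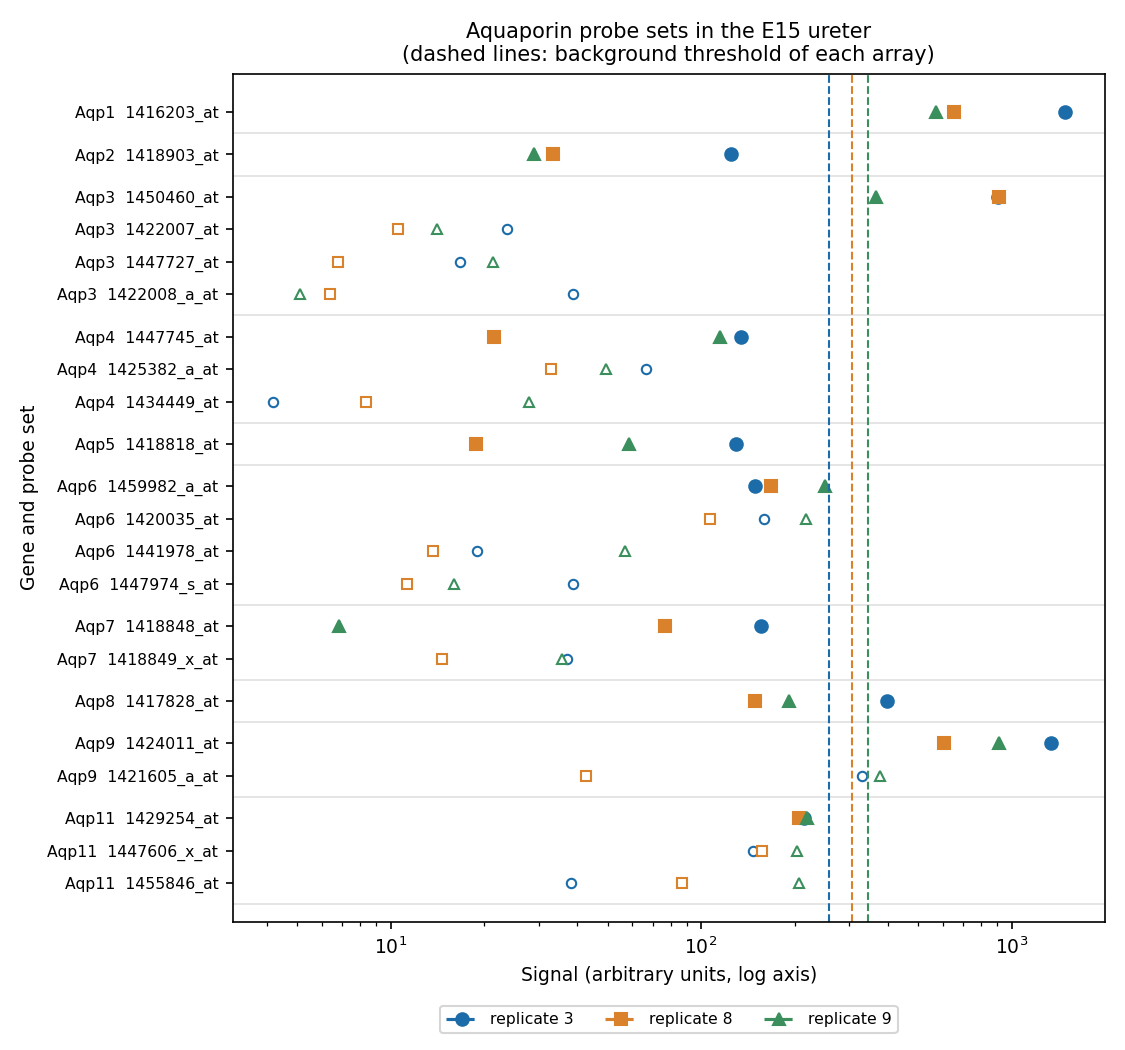
Signal of each of the 22 aquaporin probe sets on the 3 arrays (log axis, arbitrary units), with 1 row per probe set. Filled symbols mark the probe set that stands for the gene, open symbols its other probe sets, and dashed lines the background threshold of each array in the same colour. The probe sets 1416203_at of Aqp1, 1450460_at of Aqp3 and 1424011_at of Aqp9 lie right of the threshold of their array in all 3 replicates.

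Aqp1 encodes the constitutively open water channel of red blood cells, capillary endothelium and the proximal tubule. Its 1 probe set, 1416203_at, had signals of 1488, 652 and 569 in replicates 3, 8 and 9, a mean of 903 ± 508 (SD, n = 3, as for every mean ± SD here). Replicate 3 was high, and replicates 8 and 9 lay close together. The signal was 5.77, 2.13 and 1.65 times the threshold in the 3 replicates, and no gene of the reference list was brighter on any array. The range over the arrays was 1.38 on the log2 scale, a 2.61-fold difference between the highest and the lowest array.

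Aqp3 encodes an aquaglyceroporin of basolateral membranes, known from collecting duct principal cells, epidermis and urothelium. Its brightest probe set, 1450460_at, had signals of 906, 909 and 366 in replicates 3, 8 and 9, a mean of 727 ± 312. Replicates 3 and 8 were nearly equal, and replicate 9 was low. In replicate 9 the signal was 1.06 times the threshold and 2 genes of the reference list were brighter, so the margin there was narrow. The call ended when background was set at the 99th percentile instead, and also when the log2 values of all probe sets of the gene were averaged. The other 3 probe sets of Aqp3 had means of 16.1 ± 6.8 (1422007_at), 15.0 ± 7.5 (1447727_at) and 16.7 ± 19.1 (1422008_a_at), all far below the threshold on every array. The annotation gives 1422007_at, 1422008_a_at and 1450460_at the same sequence accession, although they differed in signal on each array.

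Aqp9 encodes the aquaglyceroporin through which hepatocytes take up glycerol, and it is also expressed in some leukocytes. Its brightest probe set, 1424011_at, had signals of 1340, 607 and 909 in replicates 3, 8 and 9, a mean of 952 ± 368. The signal was 5.20, 1.99 and 2.63 times the threshold, and no reference gene was brighter on any array. The other probe set, 1421605_a_at, had signals of 330, 42.6 and 377, and it passed the threshold in replicates 3 and 9 but not in replicate 8. Both probe sets were lowest in replicate 8, while the first was highest in replicate 3 and the second in replicate 9. Averaged over both, Aqp9 was not above background on every array.

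Aqp8, a water channel of hepatocytes, colon and exocrine pancreas that also passes ammonia and hydrogen peroxide, was the 1 member with a mixed result at its brightest probe set. Its signals were 396, 149 and 191, a mean of 246 ± 132. The value in replicate 3 was 1.54 times the threshold and was exceeded by 1 reference gene, whereas the values in replicates 8 and 9 were 0.49 and 0.55 times the threshold.

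Aqp2, Aqp4, Aqp5 and Aqp7 were below the threshold on every array at all of their probe sets. Aqp2, the vasopressin-regulated channel of principal cells, had signals of 125, 33.4 and 28.9, and between 16 and 40 of the 55 reference genes were brighter. Aqp4, which sits in basolateral membranes of the collecting duct, in astrocyte end-feet and in skeletal muscle, had signals of 135, 21.6 and 115 at its brightest probe set. Its other 2 probe sets had means of 49.6 ± 16.8 and 13.5 ± 12.7. These 3 probe sets lay within the range of the reference list.

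Aqp5, the apical channel of salivary and lacrimal glands and of alveolar type I cells, had signals of 130, 18.9 and 58.8. Aqp7, the glycerol channel of adipocytes, had signals of 155, 76.5 and 6.81 at its brightest probe set and a mean of 29.1 ± 12.5 at the other. The 4.32 log2 range of the first Aqp7 probe set is one between values that were all below the threshold.

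Aqp6 and Aqp11, both of which encode channels of intracellular membranes, were below the threshold on every array but closer to it. Aqp6, an anion-permeable channel of acid-secreting intercalated cells, had signals of 149, 168 and 251, a mean of 189 ± 54. A second Aqp6 probe set averaged 161 ± 56 and the other 2 averaged 29.9 ± 23.6 and 22.0 ± 14.6. Aqp11, a channel of the endoplasmic reticulum whose loss causes polycystic kidneys in mice, had signals of 214, 206 and 219, which is 0.83, 0.67 and 0.63 times the threshold. These were nearly equal on the 3 arrays (mean 213 ± 6.5), and only 6 or 7 reference genes were brighter on each. Its other probe sets averaged 169 ± 30 and 111 ± 87. The probe sets that stand for Aqp6 and Aqp11 thus lay in the upper part of the reference list without passing the threshold, and a low level of either transcript could not be told from background here.

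**Figure D2:**
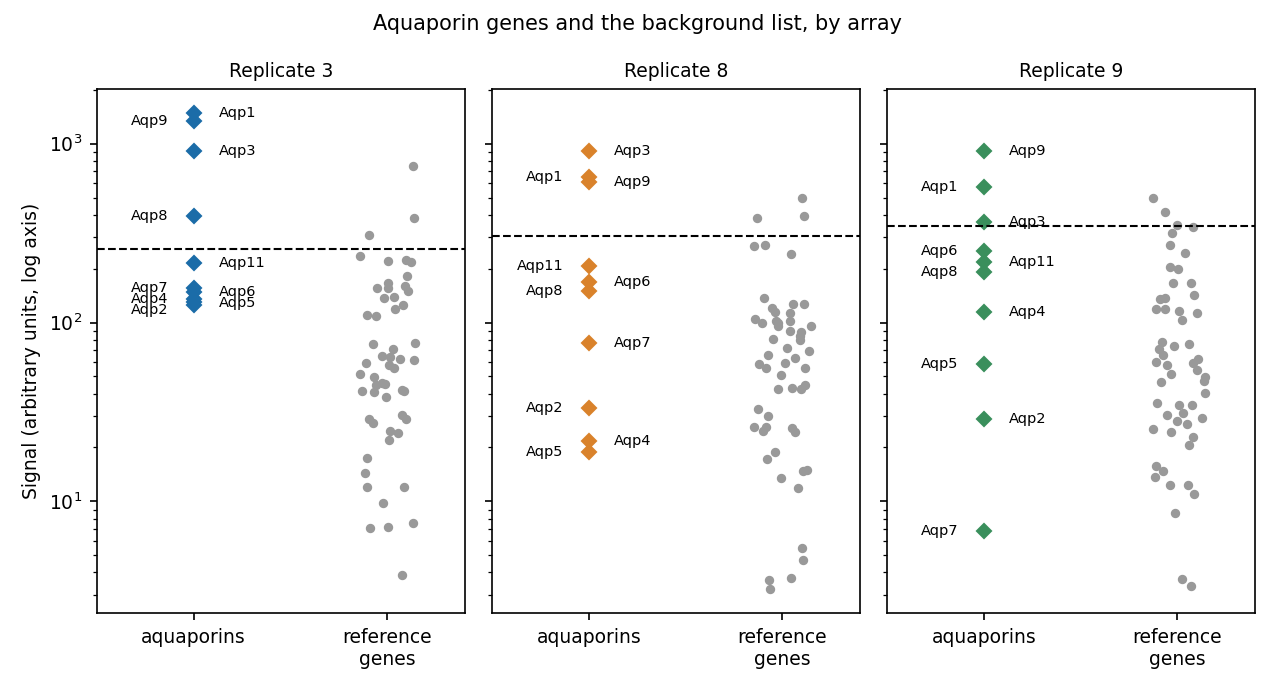
Signal of the 10 aquaporin genes (coloured diamonds, left in each panel, brightest probe set) and of the 55 reference genes (grey, right in each panel) on each array, on a log axis in arbitrary units. The dashed line is the 95th percentile of the reference genes. Aqp1 and Aqp9 lie above all reference genes in each replicate, and Aqp3 lies just above the line in replicate 9.

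Several members neighbour each other in the genome, in the RefSeq table of assembly GRCm38.p6. Aqp2, Aqp5 and Aqp6 are consecutive protein-coding genes on chromosome 15, and none of the 3 was above background on any array. Aqp3 and Aqp7, both aquaglyceroporin genes, are consecutive protein-coding genes on chromosome 4, and Aqp3 was above background while Aqp7 was not. Of the 3 aquaglyceroporin genes, Aqp3, Aqp7 and Aqp9, 2 were above background, a share near the 58.6% of all named genes. The mouse aquaporin genes outside the 10 members, Aqp12 of pancreatic acinar cells and Mip of lens fibres, had signals of 133 ± 67 and 22.4 ± 16.5, below the threshold on every array.

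The 3 aquaporin genes above background differed between the samples. Aqp1, Aqp3 and Aqp9 had log2 ranges of 1.38, 1.31 and 1.14, each at least 1, a range reached by 15.6% of all genes above background. Among the 1873 genes above background with a mean log2 signal between 9 and 10, the band that holds these 3 members and was chosen after their values were seen, the share was 25.5%. The median range was 0.68 in that band and 0.55 over all genes above background. The range of Aqp1 rests on replicate 3, that of Aqp3 on replicate 9 and that of Aqp9 on replicates 3 and 8, and without replicate 3 Aqp3 alone kept a range of at least 1.

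Markers of other cell types also differed between the samples, and several of those cell types are known to hold an aquaporin. The list of urothelium and epithelium and that of smooth muscle were above background for 11 of 14 and 8 of 10 genes. The share of all named genes, 58.6%, stands beside these and all list counts below. Of the uroplakin genes, Upk1b and Upk3b were above background, and Upk3b is also in the mesothelial list. Upk3a and Upk1a passed the threshold on 1 array each and Upk2 on none. Some lists of cells outside the ureter wall or mixed into it had counts over that share as well. They were above background for 8 of 8 measured erythroid genes, 8 of 8 measured hepatocyte genes and 9 of 10 skeletal muscle genes. In RNA of whole tissue, fewer cells of a type and less RNA per cell cannot be told apart. The ratio of the 3′ to the 5′ control probe set, which grows as labelled RNA gets shorter, was 18.9, 15.1 and 16.4 for Gapdh in replicates 3, 8 and 9, the same order of arrays as for Aqp9. For beta-actin it was 7.5, 6.5 and 4.0, the same order as for Aqp1. The Gapdh order differed from that of Aqp1, the beta-actin order from that of Aqp9, and both from that of Aqp3. The part of this measure in the Aqp1, Aqp3 and Aqp9 signals was not tested.

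The hepatocyte list was highest in replicate 3 and lowest in replicate 8 for all 8 of its measured genes, as was the probe set that stands for Aqp9. Its summed signals were 234678, 121871 and 175464 in replicates 3, 8 and 9, and no marker was below the threshold. Deviations were taken from the 3-array mean over the marker genes above background, less each array's median deviation. The mean log2 deviation of the hepatocyte genes was 0.68, -0.62 and -0.05 in replicates 3, 8 and 9, next to 0.56, -0.59 and 0.04 for Aqp9. This order of arrays was not particular to hepatocyte genes: the erythroid, macrophage and mesothelial lists were also highest in replicate 3 and lowest in replicate 8, with deviations of 0.69, -0.80 and 0.12 for the erythroid genes and 0.32, -0.25 and -0.06 for the mesothelial genes. Aqp8 is left out of this description, since its values in replicates 8 and 9 were below the threshold and give only a bound. Counts of marker genes highest or lowest on an array take in all measured genes of a list, also those below the threshold. The albumin gene Alb had signals of 51919, 33690 and 44594. The macrophage list, given because Aqp9 occurs in leukocytes, was above background for 7 of 8 genes, with Aif1 below the threshold on every array and summed signals of 21813, 12936 and 27841. Its mean deviations were 0.29, -0.53 and 0.24, and 5 of its 8 genes were highest in replicate 3. The sum is highest in replicate 9 because of Csf1r, with signals of 8111, 5183 and 17559. The part of these cell types in the Aqp9 signal was not tested.

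For Aqp1, the erythroid list had summed signals of 176814, 85268 and 137966 in replicates 3, 8 and 9, and all 8 of its measured genes were lowest in replicate 8. The endothelial list was above background for 8 of 10 genes and had summed signals of 17944, 16728 and 12979. In this list Tie1 was below the threshold on every array, and Pecam1 passed it in replicate 3 alone. Of the 10 endothelial genes, 9 were lowest in replicate 9, as was Aqp1. The mean deviations of the endothelial genes were 0.11, 0.13 and -0.23, against 0.85, -0.35 and -0.49 for Aqp1, so the list moved little in replicate 3 and went the other way in replicate 8. Aqp1 and the erythroid genes were both high in replicate 3, with deviations of 0.85 and 0.69. That rise was not particular to erythroid genes: replicate 3 had deviations of 0.68 for hepatocyte, 0.32 for mesothelial and 0.30 for skeletal muscle genes. Other lists were low there, with -0.33 for collecting duct and ureteric tip genes and -0.38 for neuron and glia genes. In replicate 8 the erythroid deviation was -0.80 and that of Aqp1 -0.35, and in replicate 9 they were 0.12 and -0.49. The list of the proximal tubule and nephron, where Aqp1 is abundant in the adult kidney, was above background for 1 of 8 genes, Hnf4a, a gene also expressed in hepatocytes. Its other 7 genes, among them the tubular transporter gene Slc34a1 and the endocytic receptor genes Lrp2 and Cubn, were below the threshold on every array. The part of red cells and endothelium in the Aqp1 signal was not tested.

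For Aqp3, the urothelial and epithelial list had summed signals of 54076, 69546 and 49048. Upk2 was below the threshold on every array, and Upk3a and Upk1a passed it on 1 array each. The list of the collecting duct and ureteric tip was above background for 6 of 7 measured genes, with Wnt9b below the threshold on every array and summed signals of 7428, 17616 and 9403. Both lists were highest in replicate 8, where 7 of 14 and 6 of 7 genes had their highest value. Aqp3 was equally high in replicate 3, with a deviation of 0.43 there and 0.42 in replicate 8, while the deviations of the 2 lists in replicate 3 were -0.06 and -0.33. In replicate 9 Aqp3 and both lists were low, with deviations of -0.84, -0.16 and -0.20. The part of epithelial content in the Aqp3 signal was not tested.

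**Figure D3:**
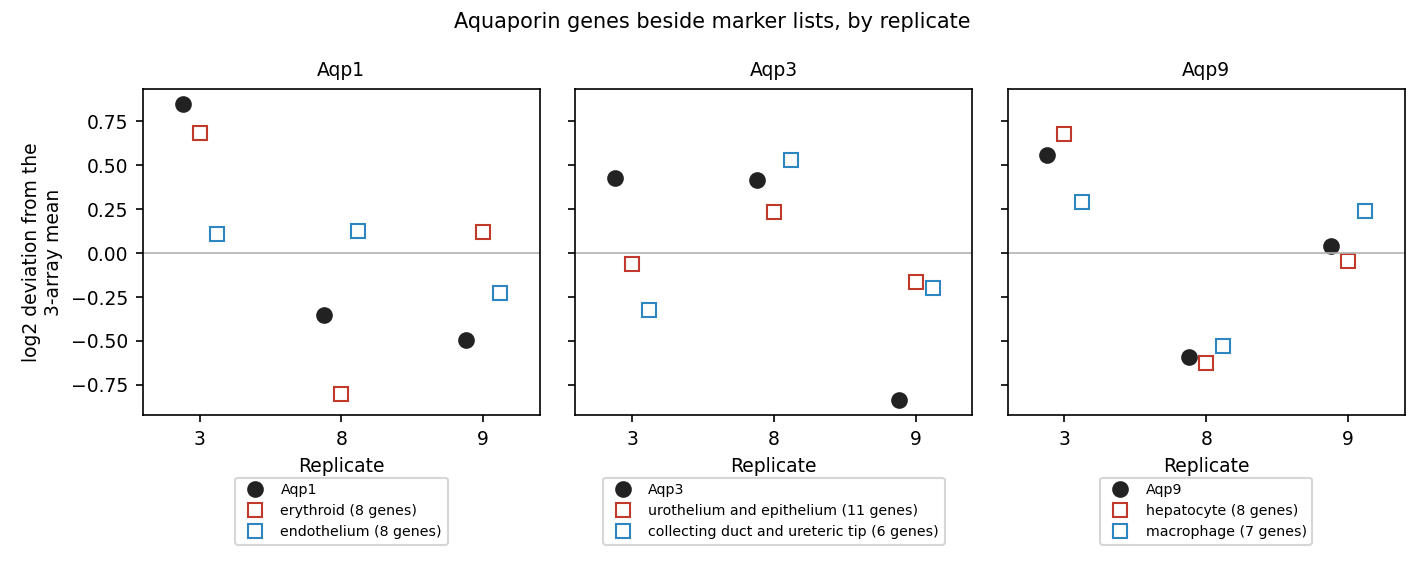
Deviation from the 3-array mean on the log2 scale, after taking off each array's median deviation, for aquaporin genes (filled circles) and for the mean of the marker genes above background in related lists (open squares), by replicate. Aqp9 is high in replicate 3 and low in replicate 8, as are the hepatocyte, macrophage and erythroid lists, so this order is not particular to 1 cell type. The second Aqp9 probe set is not shown. Aqp1 and Aqp3 each depart from their lists in at least 1 replicate.

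Markers of the remaining cell types that hold an aquaporin were mixed, beside 58.6% of all named genes above background. Skeletal muscle, which carries Aqp4, was above background for 9 of 10 genes with summed signals of 82703, 73562 and 66533, while no Aqp4 probe set passed the threshold. The neuron and glia list was above background for 5 of 8 measured genes. Of its glial genes, Erbb3 (3918 ± 593), Fabp7 (2006 ± 1193) and S100b (456 ± 123) were above background, Sox10 was above the threshold on 2 arrays, and Gfap, the gene of astrocytes, was below it on every array (183 ± 42). The adipocyte list, relevant to Aqp7, was above background for 3 of 7 measured genes, Lpl, Fabp4 and Cd36. Cebpa and Pparg were above the threshold on 2 arrays, and Adipoq and Lep were below it on every array. The list of airway and salivary gland epithelium, relevant to Aqp5, was above background for 1 of 8 genes, Sox2.

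Genes that work with aquaporins were described by 4 lists, and 24 of their 35 measured genes were above background, beside 58.6% of all named genes. With the probe sets of each gene averaged the total was 15 of 35, beside 50.9% of all named genes. In the list of water and urea handling by the collecting duct, 8 of 14 genes (57.1%) were above background, close to the 58.6% of all named genes. They included Prkaca and Prkacb, which encode catalytic subunits of the cyclic AMP-dependent kinase that phosphorylates Aqp2 (20045 ± 1606 and 1969 ± 861), and the adenylyl cyclase genes Adcy6 (3120 ± 564) and Adcy3 (1284 ± 252). Avpr2, the vasopressin receptor gene upstream of Aqp2, was below the threshold on every array with signals of 65.8, 213 and 181. So were the intercalated cell genes Foxi1 (19.3 ± 6.0) and Atp6v1b1 (32.4 ± 31.4). Neither Aqp2 nor this receptor gene was above background, while the kinase genes, which most cells use, were. The other genes of the list above background on all arrays include 3 singled out after their values were seen. Elf5, a transcription factor gene of principal cells, had signals of 523, 843 and 617. Scnn1b, a subunit gene of the epithelial sodium channel, had 321, 308 and 456, close to the threshold in replicate 8. The other listed subunit genes of this channel, also named after their values were seen, were not above background. Scnn1a had 234, 250 and 264, below the threshold on every array, and Scnn1g had 179, 572 and 238, above it in replicate 8 alone. The vasopressin receptor gene Avpr1a had 575, 537 and 675.

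In the same list Slc14a1, singled out after its values were seen, encodes the urea transporter of red cells, vasa recta and urothelium. It had signals of 1460, 704 and 671 in replicates 3, 8 and 9, above the threshold on each array. Replicate 3 was high, and the other 2 samples were nearly equal.

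In the hypertonicity list 5 of 6 measured genes (83.3%) were above background, with the kinase gene Sgk1 at 7759 ± 3035, the inositol transporter gene Slc5a3 at 6715 ± 1357, Nfat5, the transcription factor gene of the response, at 3429 ± 643, and Hspa4l at 2052 ± 243. Slc6a12, the betaine transporter gene, was at 8.83 ± 3.55, below the threshold on every array. Of the dystrophin complex and its partners, which anchor Aqp4 at membranes, 6 of 9 genes (66.7%) were above background. These included Agrn (9288 ± 1941), Dag1 (8539 ± 360), the utrophin gene Utrn (7916 ± 845) and Sntb1 (2553 ± 699). Sntb2 and Kcnj10, the potassium channel gene found beside Aqp4 in astrocytes, were at 154 ± 54 and 111 ± 52, below the threshold on every array.

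Genes of glycerol uptake and use, the pathway served by aquaglyceroporins, were above background for 5 of 6 measured genes (83.3%). They included Gpam, which encodes the acyltransferase that starts glycerolipid synthesis (16066 ± 494), the glycerol phosphate dehydrogenase genes Gpd2 (1720 ± 552) and Gpd1 (793 ± 137) and the monoglyceride lipase gene Mgll (1268 ± 282). The hormone-sensitive lipase gene Lipe was at 202 ± 42, below the threshold on every array. The glycerol kinase gene Gk was not analysed here.

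**Figure D4:**
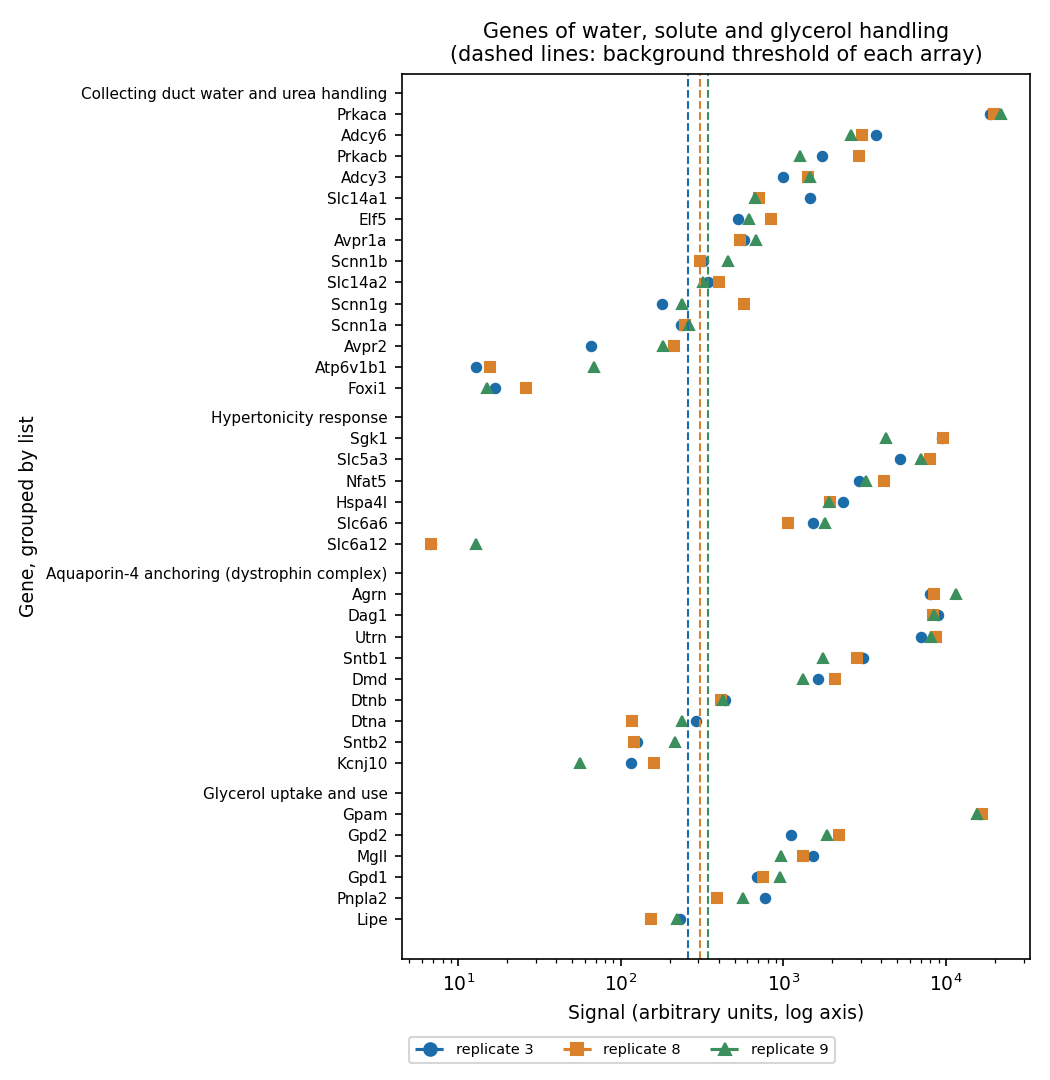
Signal of the 35 measured genes of 4 lists on the 3 arrays (log axis, arbitrary units), with dashed lines for the background threshold of each array. Of these genes, 24 lie above the threshold in all replicates, and Avpr2, Foxi1, Atp6v1b1, Slc6a12, Kcnj10 and Lipe are among those below it in each.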

How the data were processed

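The deposited table gives 1 linear intensity for each probe set on each array. GCOS is named in the submitters' processing notes, with no version or settings. The authors' scaling is visible in the values: the 2% trimmed mean was 1500 after rounding on every array, while medians were 234, 198 and 273 in replicates 3, 8 and 9. Background handling is not given in the sources used here.

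The platform annotation gave 1 gene symbol to 34958 of 45101 probe sets and several to 932, and 9211 are not named here. RefSeq held the Entrez ID of 34754 and changed 0 symbols. A pseudocount of 1 was added before taking log2, and the probe set with the highest mean on that scale stood for its gene. The reference list held 60 genes, 55 of them measured, of which 1 (Cela3b) was itself above background. With 1 group of 3 arrays nothing was tested between groups, no p-value was computed, and no genes of like pattern were sought over so few arrays. The aquaporin genes and all lists were chosen with earlier results of these data known. Named genes were every member with all of its probe sets, up to 4 genes with the highest mean above background and up to 3 of the lowest per related list, and marker genes tied to a cell type known to hold an aquaporin. A few further genes of the collecting duct list were singled out after their values were seen, as stated where they appear. Analysis used Python 3.11.15, numpy 2.4.6, pandas 2.3.3, scipy 1.17.1 and matplotlib 3.10.9.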

Additional observations from a re-analysis of the deposited data

How the results depend on the processing

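Settings varied were the normalization (quantile), the pseudocount (16 and 64), the probe set rule, the percentile of the reference list (90th and 99th), presence on at least 2 arrays, the replicates and, chosen after seeing the data, a reference list without exocrine pancreas genes. Aqp1 was above background in all 12 alternatives, Aqp9 in 11 and Aqp3 in 10, and no further aquaporin gene was called in any of them. The 90th percentile, presence on at least 2 arrays and leaving out a replicate ease the rule, and could add calls but hardly remove them. The pseudocount enters a call only through the choice of probe set, and averaging leaves the signal of Aqp1, with 1 probe set, unchanged. Quantile normalization, the 99th percentile and, with several probe sets, averaging could remove a call. With all probe sets of a gene averaged, which draws in dim probe sets, 1 member (Aqp1) was above background instead of 3. The share of all named genes was then 50.9%. Aqp1 had a range of at least 1, as did 17.5% of all genes above background under that rule. The counts were 5 of 14 for collecting duct handling, 3 of 9 for the dystrophin complex and 3 of 6 for glycerol. Over the 4 lists the count was 15 of 35, under the 50.9% of all named genes. With the brightest probe set it was 24 of 35, over the 58.6%. With the 99th percentile, 2 members (Aqp1 and Aqp9) were called, beside 52.3% of all named genes. Leaving out 1 replicate at a time, which eases the call and can only narrow the range of a probe set, 3 members were called each time. The share of all named genes called was 59.5% to 60.3%. Of the 3 members, 1 to 2 had a range of at least 1, against 6.88% to 8.58% of all genes above background in these settings. With no filter on low values, 8 of 10 members had such a range, against 34.5% of all named genes. Most of these 8 were below the threshold on some or all arrays, and the comparison does not match brightness. Of 108 recomputed counts, 100 stayed within 1.5 times the reported value, and 8 moved further. Of 60 recomputed member levels, 56 moved by less than 1 SD. Many of these could not move further: leaving out 1 of 3 arrays shifts the mean of a probe set by less than 1 SD. No probe set that stands for a member ends in _x_at or _s_at, and averaging leaves the 4 genes with 1 probe set unchanged. The levels that moved further, all from averaged probe sets, were Aqp3 (39.2), Aqp6 (63.8), Aqp9 (471) and Aqp11 (152). Levels under the threshold give only a bound. No paired analysis was possible because there was 1 group.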
